A study of Mus musculus with 12 samples.

Results

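The clustered protocadherins are cell-surface adhesion proteins whose genes lie in 3 neighbouring clusters on mouse chromosome 18. All rows with a mouse symbol beginning Pcdha, Pcdhb or Pcdhg and ending in a member number were taken, which gave 57 genes of the 19268 in the table: 14 in the alpha cluster, 21 in the beta cluster and 22 in the gamma cluster. GENCODE M21 lists 58 such identifiers, and the remaining one, Pcdhb1, was not analysed here. In GRCm38 the alpha members span chr18:36930184-37187661, the beta members chr18:37294812-37524479 and the gamma members chr18:37661793-37841873, all on the plus strand. Forebrain RNA from male C57BL/6J mice was sequenced in 12 libraries, 3 for each of 4 groups: wild-type (WT) and homozygous Shank3 knock-out (KO) mice at postnatal day 25 (P25, juvenile) and at P60 (adult). The KO mice lack internal exons of Shank3, a scaffold protein of excitatory synapses. The forebrain was taken without the olfactory bulb. Libraries are named by group and replicate, and nothing in the sources used here ties a replicate number to a litter or a day, so p-values measure the spread between these libraries.

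In the alpha and gamma clusters, each gene has its own large first exon with its own promoter, spliced to constant exons that all members of the cluster share, whereas beta genes consist of a single exon. The first exon encodes the extracellular cadherin repeats, and the proteins recognise identical copies on neighbouring cells. A neuron transcribes a mostly random few of the variable members (alpha, beta, gamma A and gamma B), a choice that involves CTCF, cohesin and promoter methylation. The C-type members (Pcdhac1, Pcdhac2, Pcdhgc3, Pcdhgc4 and Pcdhgc5) at the downstream ends of the alpha and gamma clusters are regulated apart from this choice, with known parts in axonal tiling for Pcdhac2 and in neuronal survival for Pcdhgc4.

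Values are normalized counts, scaled by the depositors per gene and library. Because of the constant exons, reads could be assigned to one member with differing certainty. All 14 alpha members held 2860 exonic bases that lay in exons of other members, which was 48.6% to 54.9% of their transcript length. In the gamma cluster this share ran from 41.7% in Pcdhga12 to 66.8% in Pcdhga4, with a median of 45.0%. In the beta cluster it was 0% except for Pcdhb21 and Pcdhb22, which overlap by 455 bases. A second measure, the share of a member's 31-base words that also occur in any other annotated transcript, had a median of 64.3% in the alpha cluster, 12.1% in the beta cluster and 49.0% in the gamma cluster. The lowest share was 5.22% in Pcdhb14 and the highest 99.4% in Pcdhga10, whose exon is covered by the antisense transcript Gm26672. The library kit does not mark strand, so Pcdhga10 and Gm26672 cannot be told apart, and the same holds in part for the alpha members covered by Gm10545. Gm26672 had 18.6 to 89.2 and Gm10545 25.5 to 68.0 normalized counts over the 12 libraries.

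The libraries summed to 30568300 to 32348600 normalized counts with 19183 to 19223 genes above 0, and read depth is unknown because the counts were already scaled. Shank3 in KO libraries was 48.0% of WT at P25 and 50.2% at P60, with no overlap between groups at either age (exact two-sided permutation test, p = 0.1, the smallest that 3 against 3 allows). The forebrain regional markers were present in every library, among them Emx1 at 331 to 578 normalized counts. Of the 7 hindbrain and cerebellum markers in the table, Gabra6, a GABA receptor subunit of cerebellar granule cells, had 221 normalized counts in P60-WT replicate 2 and 68.5 in P60-KO replicate 1 against 0 to 4.40 in the other 10 libraries. The summed level of these 7 markers was 733 to 898 at P25-WT, 764 to 801 at P25-KO, 655 to 1391 at P60-WT and 672 to 918 at P60-KO. Pcdhgc4, the gamma sums at P60, the ENSMUSG00000007440 difference and the genotype medians at P60 are given below also without these 2 libraries.

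Levels among the members spanned more than 2 orders of magnitude, and averaged over the 12 libraries the 3 C-type members of the gamma cluster had the highest levels. Per kilobase of transcript and averaged over the 12 libraries, Pcdhgc5 had 1205 normalized counts, Pcdhgc3 763, Pcdhgc4 707 and Pcdhac2 395. The highest variable member was Pcdhga11 at 207, and Pcdha8 was the lowest of all at 7.60. Pcdhgc5 ranked first and Pcdha8 last in 12 of 12 libraries. Pcdhac1 was the exception among the C-type members, at 50.3 per kb and between ranks 30 and 45. Median levels per kb were 55.7 for the 12 variable alpha members, 43.0 for the 21 beta members, 115 for the 12 gamma A members and 90.9 for the 7 gamma B members. Within the alpha cluster Pcdha12 was the highest variable member at 126 per kb. Within the beta cluster levels ran from 18.8 in Pcdhb4 to 108 in Pcdhb17, and Pcdhb2 had the lowest mean before division by length, 66.5 normalized counts. Within gamma A and B they ran from 25.2 in Pcdhgb8 to 207 in Pcdhga11. The order was alike between libraries: Spearman correlations of members between 2 libraries had a median of 0.921 in the alpha, 0.947 in the beta and 0.941 in the gamma cluster, over 66 pairs of libraries that share one annotation.

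**Figure D1:**
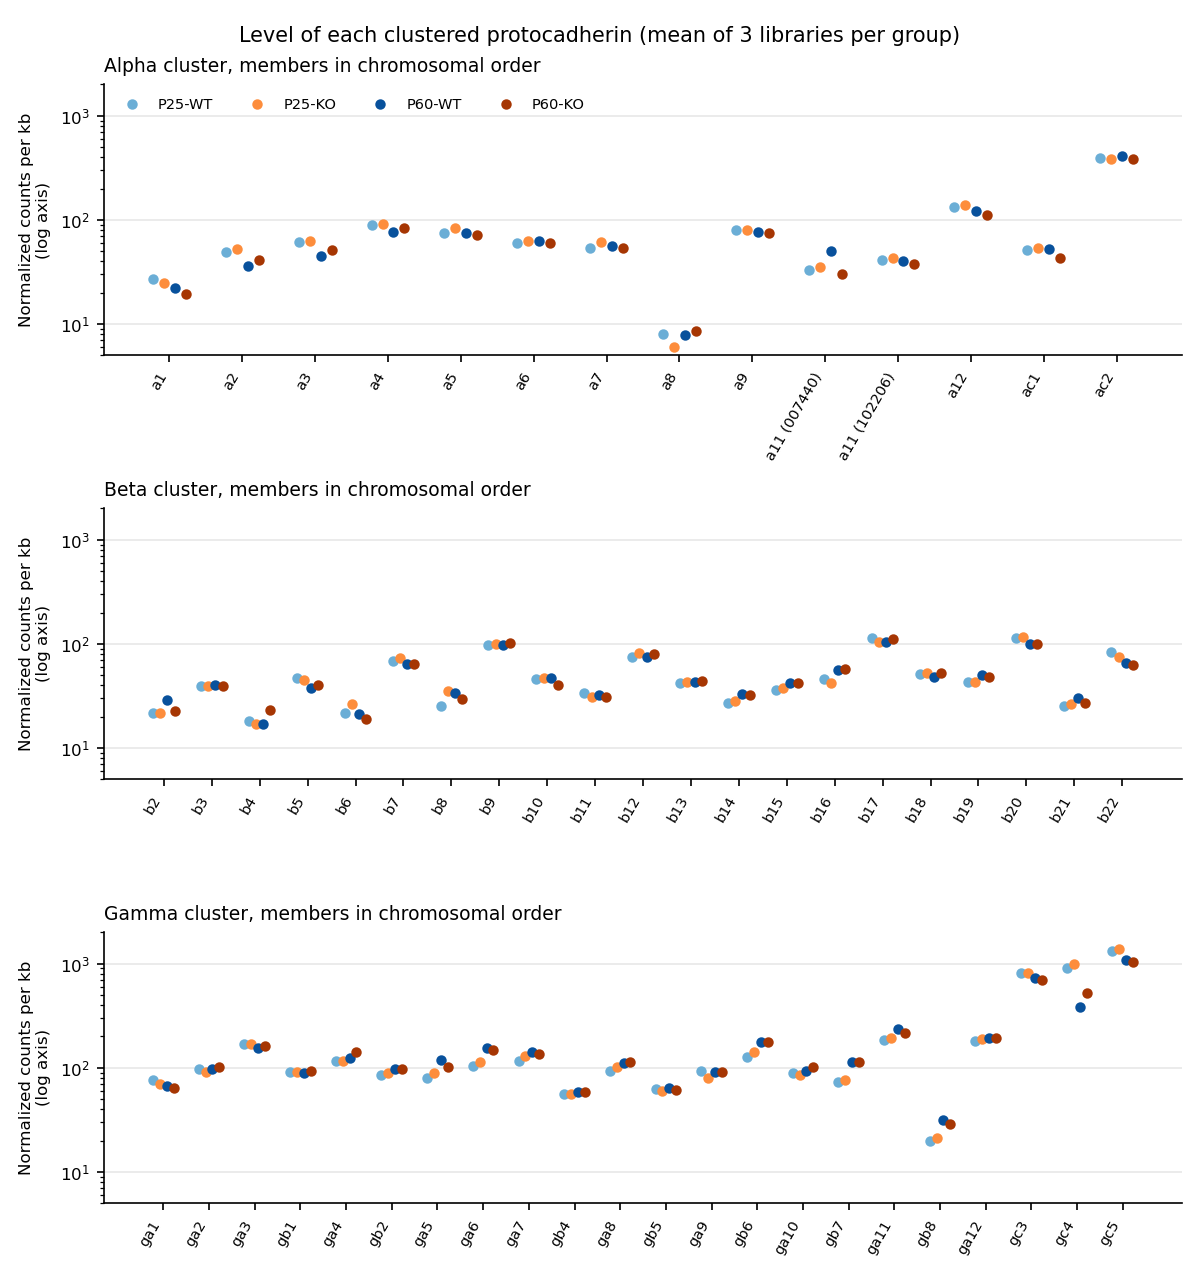
Normalized counts per kilobase of transcript (log axis) for each member in chromosomal order, with 1 point per group (mean of 3 libraries). The gamma C-type members and Pcdhac2 stand above all variable members, and Pcdhgc4 is the member whose P60 points fall farthest below its P25 points.

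The order among the top members differed between ages. Pcdhgc4 was above Pcdhgc3 per kb in all 6 P25 libraries and below it in all 6 P60 libraries. The ratio of Pcdhgc3 to Pcdhgc4 was 0.896 ± 0.063 at P25-WT, 0.805 ± 0.060 at P25-KO, 2.01 ± 0.65 at P60-WT and 1.43 ± 0.53 at P60-KO (SD, n = 3). At P25 Pcdhgc4 also stood above Pcdhac2 in every library, whereas at P60 it did so in 1 of 3 WT and 2 of 3 KO libraries, so this pair did not separate beyond its spread. Pcdhgc5 remained 1.31 to 1.78 times the level of Pcdhgc3 per kb in all libraries.

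The age comparison asks how the clusters differ between juvenile and adult forebrain in each genotype. The largest difference was in Pcdhgc4, which fell in both genotypes, while several gamma A and B members rose. A gene was called when its adjusted p was under 0.05 (limma on log2(value + 1), Benjamini-Hochberg over all genes tested). In WT mice 7 of 57 members were called, that is 12.3% against 8.65% of all 17581 genes tested, with 6 higher and 1 lower at P60 where the genes divided into 3.66% higher and 4.99% lower. In KO mice 6 of 57 were called, that is 10.5% against 20.7% of 17596 genes, with 3 higher and 3 lower where the genes divided into 9.37% and 11.3%. Pcdhgc4, Pcdhgb7 and Pcdhga6 were called in both genotypes with the same direction. That was 5.26% of the 57, against 1282 (7.39%) of the 17359 genes tested in both, and all 1282 also kept their direction. The 2 age comparisons share no libraries. When all libraries were instead brought to a common total, WT mice kept 6 members called higher and 1 lower and KO mice had 4 and 2, while the part of all called genes that was higher went from 42.3% to 59.3% in WT and from 45.3% to 56.5% in KO mice.

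Pcdhgc4 had 4777, 4827 and 4164 normalized counts in P25-WT replicates 1 to 3 and 2007, 2476 and 1360 in P60-WT. In KO mice it had 4966, 4989 and 5120 at P25 and 3268, 2836 and 1816 at P60. The ages did not overlap in either genotype, and replicate 3 was the lowest at P60 in both. The log2 difference was -1.28 ± 0.19 in WT (adjusted p = 0.00809) and -0.97 ± 0.17 in KO mice (SE, adjusted p = 0.00411, limma). P60-WT replicate 2 and P60-KO replicate 1, the libraries with Gabra6, were the highest of their groups. Without P60-WT replicate 2 the difference was -1.47 in WT mice, and without P60-KO replicate 1 it was -1.15 in KO mice, both still called. The smallest falls were -1.04 without P60-WT replicate 3 and -0.72 without P60-KO replicate 3, also still called. Without an intensity trend in the test the WT call was lost, with an adjusted p of 0.0605.

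Pcdhgc5, the most abundant member, had 6346, 5841 and 6616 normalized counts at P25-WT, 4801, 4953 and 5578 at P60-WT, 6134, 6896 and 6710 at P25-KO and 4658, 4919 and 5090 at P60-KO. The ages did not overlap in either genotype. The fall by 0.43 ± 0.06 on the log2 scale was called in KO mice (SE, adjusted p = 0.00181), and in WT mice the log2 difference was -0.30 ± 0.08 with an adjusted p of 0.0571 (limma). Pcdhgc3, the third member of this end of the cluster, differed by -0.16 ± 0.07 in WT (adjusted p = 0.186) and by -0.20 ± 0.07 in KO mice (SE, adjusted p = 0.0831, limma).

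The C-type members of the alpha cluster did not pass the test. Pcdhac2 had 2140 to 2492 normalized counts at P25-WT, 2343 to 2481 at P60-WT, 2114 to 2594 at P25-KO and 2192 to 2418 at P60-KO, and all 4 groups overlapped. Pcdhac1 had a log2 difference of 0.01 ± 0.16 in WT and -0.34 ± 0.12 in KO mice (SE), where the adjusted p was 0.0826 (limma) and the ages did not overlap: 286, 304 and 288 normalized counts at P25-KO against 254, 252 and 194 at P60-KO.

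**Figure D2:**
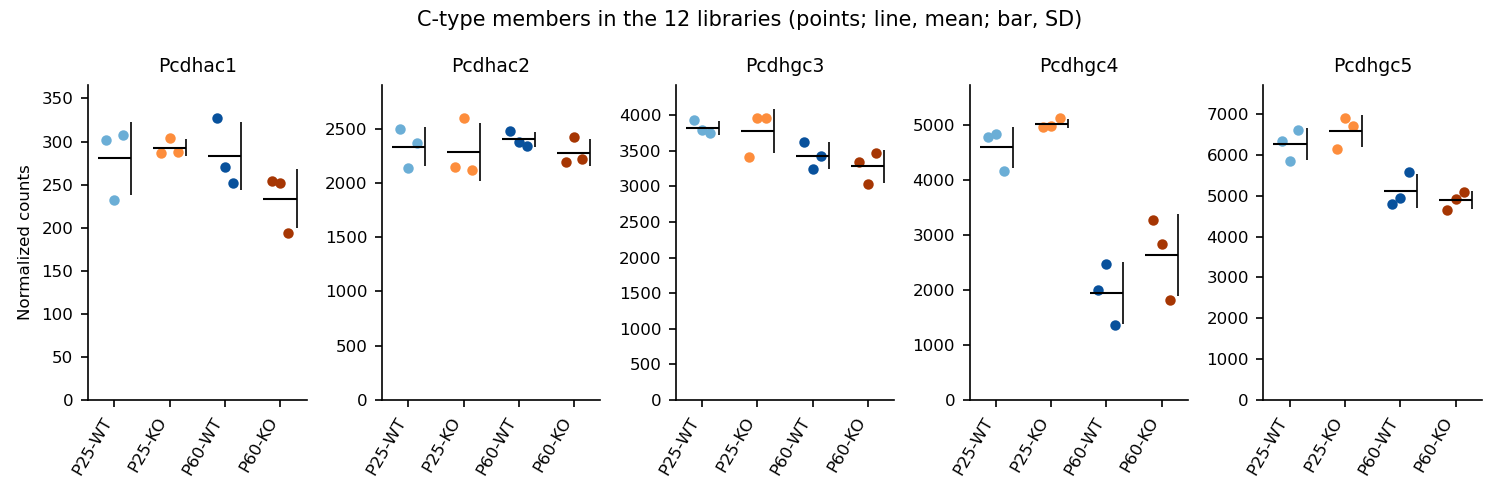
Normalized counts of the 5 C-type members in each of the 12 libraries, each panel with its own axis from 0 (points, libraries; horizontal line, group mean; vertical bar, SD, n = 3). For Pcdhgc4 the 6 libraries at P60 lie between 1360 and 3268, below the 6 libraries at P25, which lie between 4164 and 5120.

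Of the 3 gamma C-type members, Pcdhgc4 had the largest fall in normalized counts with age in both genotypes. The gamma total was 23762 ± 1260 at P25-WT and 20982 ± 567 at P60-WT, so it fell by 2779.6 normalized counts. Pcdhgc4 fell by 2642, Pcdhgc5 differed by -1157 and Pcdhgc3 by -392, and in the other direction gamma A and B together went from 9083 ± 1155 to 10495 ± 472 (SD, n = 3). Without Pcdhgc4 the gamma total at P60 was 99.3% of that at P25. In KO mice the gamma total fell by 3486, from 24716 ± 732 to 21230 ± 26.5. Pcdhgc4 fell by 2385, Pcdhgc5 fell by 1691 and Pcdhgc3 differed by -495, and gamma A and B went from 9338 ± 176 to 10422 ± 479 (SD, n = 3). Without Pcdhgc4 the total at P60 was 94.4% of that at P25. Without P60-WT replicate 2 and P60-KO replicate 1 the gamma total at P60 was 20717 in WT and 21243 in KO mice (n = 2), differences of -3044 and -3473 from P25, and the difference of Pcdhgc4 was -2906 and -2699. The difference of Pcdhgc4 was -2348 without P60-WT replicate 3 and -1973 without P60-KO replicate 3. The sum of gamma A and B overlapped between ages in WT mice, at 9203, 7873 and 10173 in P25-WT and 9956, 10837 and 10692 in P60-WT, and its age difference of 1412 ran from 807 without P25-WT replicate 2 to 1957 without P25-WT replicate 3. In KO mice it did not overlap, and the difference of 1085 ran from 851 to 1330 with 1 library left out. These sums are descriptions, and no test was run on them.

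The make-up of the gamma cluster differed between ages by more than the spread between libraries. The 3 C-type members held 61.9% ± 3.0 of the gamma counts at P25-WT and 62.2% ± 1.3 at P25-KO, against 50.9% ± 2.2 at P60-KO (SD, n = 3) and 49.2% to 51.2% in the 3 P60-WT libraries, with an SD of 1.03. The lowest library at P25 had 58.8% and the highest at P60 had 53.2%, so the ages did not overlap, while the genotypes overlapped at both ages. Without P60-WT replicate 2 and P60-KO replicate 1 the share was still 49.2% to 51.2% in WT and was 48.8% to 50.8% in KO mice at P60 (n = 2). Pcdhgc4 alone went from 19.4% ± 2.4 to 9.27% ± 2.57 in WT and from 20.3% ± 0.6 to 12.4% ± 3.5 in KO mice. The share of Pcdhgc3 stayed within 14.3% to 17.8% in all 12 libraries.

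**Figure D3:**
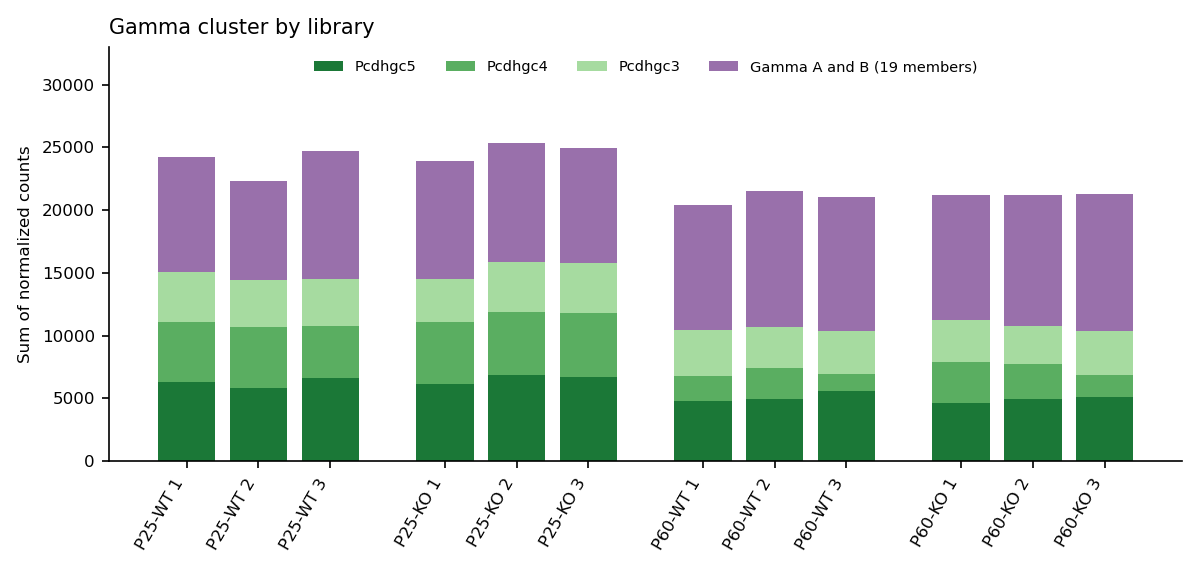
Sum of normalized counts over the gamma cluster in each library, stacked by Pcdhgc5, Pcdhgc4, Pcdhgc3 and the 19 gamma A and B members together. The Pcdhgc4 segment shrinks from 4164 to 5120 at P25 to 1360 to 3268 at P60, and the gamma A and B segment is 7873 to 10173 at P25-WT and 9956 to 10837 at P60-WT.

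The variable gamma members mostly lay above 0 in the age comparison. Of the 19 gamma A and B members, 16 had a log2 difference above 0 in WT and 17 in KO mice, against 49.9% and 50.8% of all genes tested, with medians of 0.10 and 0.16 where the medians of all genes were -0.001 and 0.006. The WT values rested on single libraries: 12 members were above 0 with a median of 0.06 without P25-WT replicate 2, and 18 with a median of 0.27 without P25-WT replicate 3, while the median was also over 1.5 times as high without P25-WT replicate 1 (0.22), P60-WT replicate 1 (0.20) or P60-WT replicate 2 (0.16). In KO mice 13 to 17 members were above 0 with medians of 0.12 to 0.17 when 1 library was left out. Those called higher were 5 in WT mice (Pcdhga5, Pcdhga6, Pcdhgb6, Pcdhgb7 and Pcdhgb8) and 2 in KO mice (Pcdhga6 and Pcdhgb7), against 3.66% and 9.37% of all genes called higher. The 10 members in the downstream part, from Pcdhgb4 to Pcdhga12, were above 0 in 10 of 10 cases in both genotypes, and the 9 upstream members, from Pcdhga1 to Pcdhga7, in 6 of 9 in WT and 7 of 9 in KO mice. The Spearman correlation of chromosomal order with the log2 difference over the 19 members was 0.52 in WT and 0.41 in KO mice, a description across genes that share constant exons. It was 0.55 and 0.28 over the 12 variable alpha members, and -0.12 and 0.13 over the 21 beta members. Over the 22 gamma members 21 had the same sign in both genotypes, as did 81.3% of all genes.

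Pcdhgb7 had 348, 328 and 362 normalized counts at P25-WT, 587, 487 and 542 at P60-WT, 349, 390 and 330 at P25-KO and 575, 449 and 579 at P60-KO. All P60 libraries lay above all P25 libraries of either genotype. The log2 difference was 0.63 ± 0.11 in WT (adjusted p = 0.0158) and 0.58 ± 0.12 in KO mice (SE, adjusted p = 0.00850, limma). Pcdhga6 had 449 to 572 at P25-WT, 681 to 769 at P60-WT, 527 to 545 at P25-KO and 641 to 770 at P60-KO, and its log2 difference was 0.59 ± 0.12 in WT (adjusted p = 0.0250) and 0.38 ± 0.09 in KO mice (SE, adjusted p = 0.0130, limma). In KO mice both calls held when any 1 library was left out.

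The other 3 gamma members called in WT mice were higher at P60 by 0.55 ± 0.10 (Pcdhga5), 0.49 ± 0.12 (Pcdhgb6) and 0.67 ± 0.15 (Pcdhgb8) on the log2 scale (SE). Their KO differences were 0.20 ± 0.12 (adjusted p = 0.258), 0.31 ± 0.10 (adjusted p = 0.0505) and 0.45 ± 0.18 (SE, adjusted p = 0.105, limma). Pcdhgb8 was the lowest gamma member, at 83.4, 87.5 and 101 normalized counts in P25-WT and 146, 146 and 142 in P60-WT. Pcdhgb6 had 517 to 686 at P25-WT and 822 to 847 at P60-WT, and Pcdhga5 had 353 to 390 and 525 to 585. Each of the 3 had no overlap between ages in WT mice. The WT count rested on single libraries: it was 1 without P25-WT replicate 1, without P60-WT replicate 1 or without P60-WT replicate 3, and 2 without P60-WT replicate 2, with Pcdhgc4 called in each of these 4 cases.

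**Figure D4:**
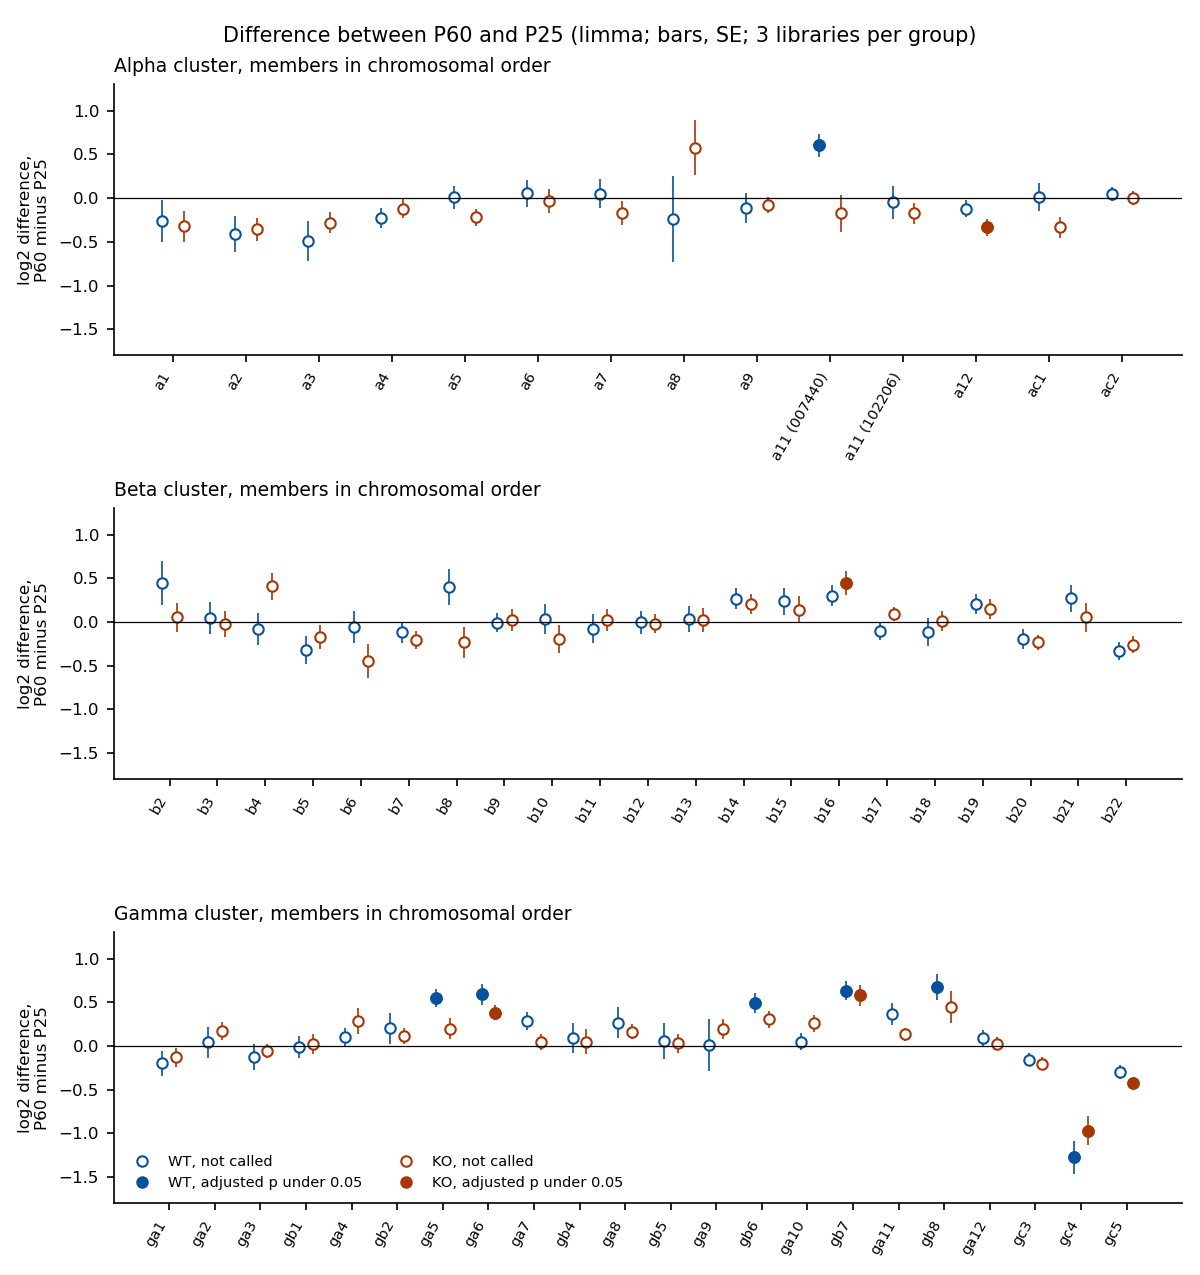
log2 difference between P60 and P25 for each member in chromosomal order, WT in blue and KO in red, with SE bars from limma (3 libraries per group) and filled points where the adjusted p was under 0.05. Gamma A and B members lie mostly above 0, Pcdhgc4 lies at -1.28 in WT and -0.97 in KO, and beta members lie on both sides of 0.

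The beta cluster as a whole was level over the 4 groups. Its total was 4549 ± 235 at P25-WT, 4549 ± 97.2 at P25-KO, 4523 ± 219 at P60-WT and 4526 ± 270 at P60-KO (SD, n = 3). Of the 21 beta members 10 were above 0 with age in WT and 12 in KO mice, against 49.9% and 50.8% of all genes, and 13 of 21 had the same sign in both, against 81.3% of genes. The medians of -0.002 and 0.02 had no stable sign: with 1 library left out they ran from -0.05 (without P25-WT replicate 2) to 0.06 (without P60-WT replicate 3) in WT, and in KO mice from -0.06 (without P25-KO replicate 2) and -0.05 (without P60-KO replicate 3) to 0.06 (without P60-KO replicate 1). In WT mice 0 of 21 were called, against 8.65% of all genes, and in KO mice 1 of 21, Pcdhb16, against 20.7%. It had 231, 205 and 220 normalized counts at P25-KO and 246, 307 and 351 at P60-KO, a log2 difference of 0.45 ± 0.14 (SE, adjusted p = 0.0421, limma). In WT mice the same gene had 242, 218 and 255 at P25 and 276, 291 and 317 at P60, a difference of 0.30 ± 0.12 (SE, adjusted p = 0.141, limma). The KO call was lost in 5 of the 6 fits that left out 1 library. Pcdhb22, which had the smallest p of the beta cluster in WT mice, differed by -0.33 ± 0.11 in WT (adjusted p = 0.0799) and -0.26 ± 0.09 in KO mice (SE, adjusted p = 0.0778, limma), and its ages did not overlap in either genotype.

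In the alpha cluster 2 of 14 members were above 0 with age in KO mice, against 50.8% of all genes, with a median of -0.17 that ran from -0.24 to -0.13 with 1 library left out. In WT mice 6 of 14 were above 0, against 49.9%, with a median of -0.08 that ran from -0.15 without P60-WT replicate 1 to 0.05 without P60-WT replicate 2. The alpha total was 6403 ± 272 at P25-WT, 6262 ± 190 at P60-WT, 6532 ± 447 at P25-KO and 5949 ± 198 at P60-KO (SD, n = 3). Of the 14 alpha members 1 was called in each genotype, against 8.65% of all genes in WT and 20.7% in KO mice. Pcdha12 had 760, 833 and 646 normalized counts at P25-KO and 560, 593 and 615 at P60-KO, with no overlap, and fell by 0.33 ± 0.10 on the log2 scale (SE, adjusted p = 0.0391, limma). Its WT difference was -0.12 ± 0.10 (SE, adjusted p = 0.466). The KO call was lost in 5 of the 6 fits that left out 1 library, and also when all libraries were brought to a common total. The alpha members also had the widest spread between libraries of a group, with a median pooled SD of 0.22 on the log2 scale against 0.15 in the beta and 0.16 in the gamma cluster. Pcdha8, the lowest member, had the widest at 0.67, from 14.95 to 70.4 normalized counts within P60-WT.

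An unadjusted p under 0.05 in the age comparison was found for 13 of 57 members in WT and 18 in KO mice, against 28.9% and 35.2% of all genes. Groups that did not overlap counted 12 members above and 6 below the P25 range in WT mice, against 17.6% and 18.4% of genes, or 36% in either direction. In KO mice 10 members lay above and 8 below, against 18.9% and 20.5%, or 39.4% in either direction.

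The genotype comparison asks whether loss of Shank3 exons goes with a different use of the clusters at either age. At P25, 0 of 57 members were called with limma, against 0.00571% of all 17515 genes, and 1 had an unadjusted p under 0.05, against 1.36% of genes. That member, Pcdhb8, had 79.5, 85.2 and 87.4 normalized counts in WT and 143, 95.6 and 114 in KO libraries, a log2 difference of 0.46 ± 0.18 (SE, adjusted p = 1). The smallest p-values of the other 2 clusters belonged to Pcdha5, with a difference of 0.18 ± 0.10, and Pcdhgc4, with 0.13 ± 0.08 (SE). In 3 members KO libraries lay wholly above WT (Pcdha5, Pcdhb8 and Pcdhgc4) and in 1 wholly below (Pcdhb11), against 2.26% and 2.5% of all genes, or 4.76% in either direction. Of the members 39 were above 0, against 46.6% of genes. Cluster medians were 0.04, 0.04 and 0.05 for alpha, beta and gamma, where the median of all genes was -0.008. The alpha median was -0.01 without P25-KO replicate 2, and without P25-WT replicate 2 the beta median was -0.008 and the gamma median -0.03.

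At P60, 0 of 57 members were called with limma, against 0.00568% of all 17610 genes, and 2 had an unadjusted p under 0.05, against 2.5% of genes. Pcdhb4 had 67.7, 56.8 and 66.9 normalized counts in WT and 79.3, 86.1 and 90.3 in KO libraries, a log2 difference of 0.41 ± 0.16 (SE, adjusted p = 1, limma). The other was an identifier with the symbol Pcdha11, described below. The smallest p in the gamma cluster belonged to Pcdhga5, with a log2 difference of -0.21 ± 0.11 (SE). KO libraries lay wholly above WT in 3 members (Pcdhb4, Pcdhb17 and Pcdhga10) and wholly below in 4 (one Pcdha11 identifier, Pcdhb2, Pcdhb21 and Pcdhgb8), against 4.16% and 3.63% of all genes, or 7.79% in either direction. Of the members 23 were above 0, against 50.1% of genes. Cluster medians were -0.05, -0.002 and -0.02 for alpha, beta and gamma, and each changed sign when libraries were left out: alpha was 0.07 without P60-WT replicate 3, and without P60-WT replicate 2 and P60-KO replicate 1 together beta was 0.05 and gamma 0.04 (chosen after seeing the data), where alpha was -0.10. Pcdhgc4, with the largest positive difference, was higher in KO by 0.44 ± 0.24 on the log2 scale (SE) with an unadjusted p of 0.101 and overlapping groups.

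The symbol Pcdha11 belongs to 2 identifiers in GENCODE M21. ENSMUSG00000102206 is also Pcdha11 in RefSeq, whereas ENSMUSG00000007440, the tenth member in chromosomal order, carries the symbol Pcdha10 in RefSeq for GRCm38. ENSMUSG00000007440 shared 63.0% of its 31-base words with other transcripts and ENSMUSG00000102206 81.8%. Counting only other alpha members, the shares were 62.6% and 44.9%. ENSMUSG00000007440 had 161, 174 and 201 normalized counts at P25-WT, 263, 151 and 150.4 at P25-KO, 269, 269 and 274 at P60-WT and 153, 146 and 185 at P60-KO. The P60-WT libraries stood wholly above the P60-KO and P25-WT libraries, and 1 P25-KO library, replicate 1, lay near the P60-WT level. The spread at P60-WT was small, with an SD of 2.66 against 20.1 to 64.6 in the other 3 groups. At P60 the log2 difference between KO and WT was -0.75 ± 0.12 (SE), with an unadjusted p of 0.000142 that gave an adjusted p of 0.467 over all genes (limma). The paper on these libraries used a count model (DESeq2) and named Pcdha11, by symbol, among strongly downregulated genes at P60. The limma result here comes from a different test on scaled values. In the age comparison ENSMUSG00000007440 was higher at P60 in WT mice by 0.60 ± 0.13 (adjusted p = 0.0277) and differed by -0.18 ± 0.21 in KO mice (SE, adjusted p = 0.590, limma). The WT age call was kept in 2 of the 6 fits that left out 1 library, with adjusted p from 0.0194 to 0.125, and was lost without an intensity trend (adjusted p = 0.0601, limma). Both comparisons use the same 3 P60-WT libraries.

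ENSMUSG00000102206 differed by -0.07 ± 0.19 between KO and WT at P60 (SE), with 241, 155 and 259 normalized counts in WT and 187, 202 and 223 in KO libraries, which overlapped. Summed over both identifiers, the WT libraries had 510.3, 424 and 533 and the KO libraries 339, 348 and 408 at P60, still without overlap, and at P25 387, 385 and 426 against 471, 385 and 398. Gm10545, which overlaps the alpha members on the other strand, had 51.9 to 68.0 at P60-WT and 25.5 to 57.6 at P60-KO, and its part in the difference was not tested. Without P60-KO replicate 1 and P60-WT replicate 2 together the difference of ENSMUSG00000007440 was -0.72 with an adjusted p of 1 (limma, chosen after seeing the data), and over all alternatives it ran from -0.85 to -0.68 with adjusted p from 0.274 to 1.

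**Figure D5:**
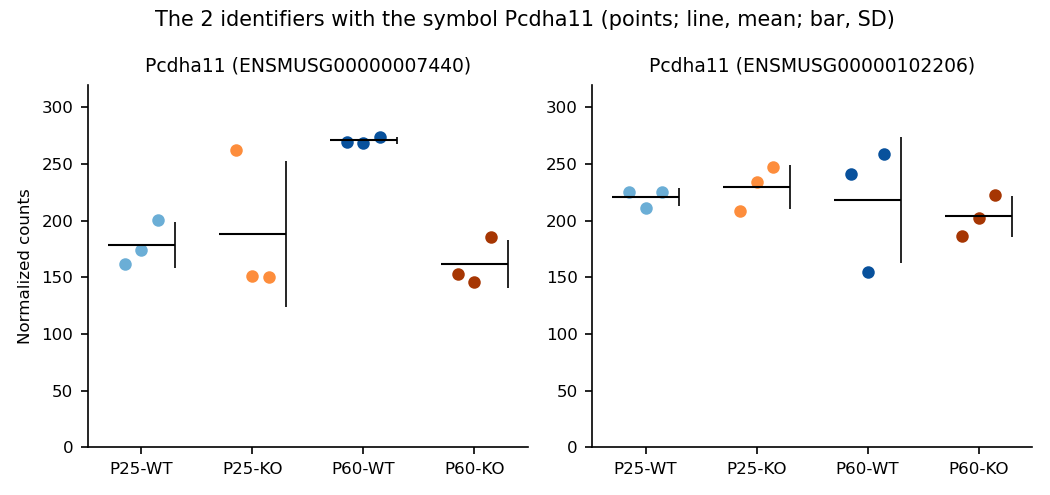
Normalized counts of the 2 identifiers with the symbol Pcdha11 in each library (points; horizontal line, group mean; vertical bar, SD, n = 3; axes from 0). For ENSMUSG00000007440 the 3 P60-WT libraries lie at 269 to 274 and the 3 P60-KO libraries at 146 to 185, and for ENSMUSG00000102206 all 4 groups overlap.

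The interaction of genotype and age, which tests whether the age difference is unlike in KO and WT mice, called 0 of 57 members, against 0% of all 17594 genes (limma). An unadjusted p under 0.05 was found in 4 members, against 1.64% of genes: ENSMUSG00000007440 at -0.78 ± 0.27, Pcdhb8 at -0.63 ± 0.28, Pcdhb4 at 0.49 ± 0.22 and Pcdhga5 at -0.35 ± 0.16 on the log2 scale (SE), each with an adjusted p of 1. Of the members 21 were above 0, against 51.8% of genes. For Pcdhgc4 the interaction was 0.30 ± 0.29 and for Pcdhgc5 -0.13 ± 0.10 (SE). The calls made in one genotype and not in the other, as for Pcdhgc5 and Pcdhga5, are therefore not shown to differ between genotypes.

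Other genes of the pathway and markers of cell types were read in the same fits, and 0 genes of any of these lists were called between KO and WT at either age or in the interaction (limma). Of 11 CTCF and cohesin genes, which shape the loops behind promoter choice, 10 were above 0 with age in WT and 11 in KO mice, against 49.9% and 50.8% of all genes, with 1 called higher in WT (Smc3, 0.37 ± 0.10) and 3 in KO mice (Pds5a, 0.31 ± 0.06, Nipbl, 0.34 ± 0.08, and Stag1, 0.29 ± 0.07, SE), where 3.66% and 9.37% of all genes were called higher. For the silencing genes and the signalling partners, 4.99% of all genes in WT and 11.3% in KO mice were called lower. Of 10 silencing genes, Dnmt3a, a DNA methyltransferase, fell by 0.44 ± 0.10 in WT and by 0.41 ± 0.07 in KO mice, and Tet3, which oxidises methylcytosine, fell by 0.35 ± 0.07 in KO mice (SE). Of 15 signalling, shedding and actin partners, 3 were called lower in WT and 4 in KO mice, among them the kinase Fyn, at -0.54 ± 0.07 and -0.57 ± 0.05, Marcks, an actin-binding kinase substrate, at -0.47 ± 0.07 and -0.46 ± 0.06, and Wasf1, a subunit of the WAVE actin regulator, at -0.31 ± 0.06 and -0.40 ± 0.06 (SE). Of the non-clustered protocadherins, 11 were tested in WT mice with 0 called, and the same 11 in KO mice with 2 called lower, against 11.3% of genes: Pcdh8 at -0.34 ± 0.07 and Pcdh1 at -0.22 ± 0.05 (SE). Pcdh12 passed the minimum mean in KO mice only through P25-KO, where its mean was 20.6 normalized counts against 3.25 to 10.1 in the other groups, so its call as lower is not counted.

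Cell type markers moved with age as well, and their counts stand against 3.66% of all genes called higher and 4.99% lower in WT mice and 9.37% and 11.3% in KO mice. All 8 oligodendrocyte markers were called lower at P60 in both genotypes, with medians of -1.33 in WT and -1.22 in KO mice, and their summed level was 440282 to 517899 at P25-WT, 400102 to 472421 at P25-KO, 194783 to 214204 at P60-WT and 199115 to 222470 at P60-KO. Of 8 astrocyte markers 3 were called lower in each genotype, among them Gfap at -0.56 ± 0.09 in WT and -0.43 ± 0.06 in KO mice (SE). Of 10 neuron markers 1 was called higher and 3 lower in each genotype, and their summed level was 203768 to 208043 at P25-WT, 198989 to 212897 at P25-KO, 208273 to 210344 at P60-WT and 201962 to 211449 at P60-KO. No microglia marker was called in either genotype, and Slc2a1 was the single endothelial marker called, lower in KO mice at -0.68 ± 0.16 (SE). Of 8 forebrain regional markers 0 were called higher and 2 lower in WT, and 1 higher and 2 lower in KO mice. Ppp1r1b was among those called lower in both genotypes. Of the hindbrain and cerebellum markers En2 was called higher in KO mice. The part of these markers in the differences of Pcdhgc4 and the other members was not tested, and in bulk tissue fewer cells of a type and less RNA per cell cannot be told apart.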

How the data were processed

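Forebrain RNA-seq libraries were prepared with a kit that does not mark strand. Per the submitters' processing notes in the labels, the authors quantified reads with Salmon 1.1.0 (GRCm38) and normalized them with DESeq2 1.26.0 in R 3.6.2. The deposited signal values are normalized counts, scaled per gene and library over all 12 libraries. As 99.8% of values above 0 were not whole, reads could not be recovered, no count model was used, and depth is unknown.

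Here, genes with a mean of at least 10 in the libraries compared were tested on log2(value + 1) with limma 3.58.1 (R 4.3.3, lmFit and eBayes with intensity trend), which was tested on simulated data. Groups came from the labels. The members, lists and tests were chosen with earlier results of these data known. Named members were both Pcdha11 identifiers, the C-type members, the highest and lowest mean and the smallest p per cluster and comparison, and all called members; from other lists, at most 3 called genes per list and comparison. Pcdhb11, Pcdhb21 and Pcdhga10, named for not overlapping, and Pcdhga11, named for its level, were chosen after their values were seen. Some genes of the forebrain list are not reported here. Symbols, exons and 31-base words came from GENCODE M21, with RefSeq symbols beside them.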

Additional observations from a re-analysis of the deposited data

How the results depend on the processing

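The alternatives were pseudocounts of 0.5 and 10, no minimum mean or one of 50, rescaling to a common total or by median ratios, no intensity trend, sample quality weights (whose estimation stopped before full convergence in 3 fits), a replicate block, all 12 libraries in 1 fit, each library left out in turn and, chosen after seeing the data, both libraries with the most Gabra6 left out. The 0 members called between KO and WT at P25, at P60 and in the interaction remained 0 under all of them. Rescaling by median ratios left the values nearly as deposited, so it could hardly change a call. For age in KO mice the count of 6 ran from 4 to 8, and from 4 to 6 with 1 library left out. For age in WT mice the count of 7 became 1 without the intensity trend (Pcdhgb8) and 21 with sample quality weights, and ran from 1 to 9 with 1 library left out. The cause was not tested. The shares of all genes called under these alternatives are not given, so the counts cannot be set against them. In KO mice Pcdhgc4, Pcdhgc5, Pcdhgb7 and Pcdhga6 were called under every alternative. In WT mice Pcdhgc4 was called under every alternative except no intensity trend.

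Replicate numbers were not treated as pairs, and at P60 whether they pair libraries is unresolved: correlations of same-numbered deviations were -0.11 to 0.02 for genotype at P25, 0.07 to 0.17 at P60, where 2 of 3 were over 0.1 and all 6 libraries correlated best with their own number, and -0.05 to 0.05 for age. With the replicate block, 0, 0 and 0 members were called for genotype at P25, at P60 and in the interaction, 8 for age in WT and 4 in KO mice.

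Without the 2 Pcdha11 identifiers the alpha total was 6004 at P25-WT, 5773 at P60-WT and 5584 at P60-KO, and with a common total for all libraries the gamma total at P60-KO was 21529. The other 28 totals and shares moved by less than 1 SD, but some of them could not move. Leaving out alpha identifiers cannot alter beta or gamma values, and rescaling a library cannot alter a share within the gamma cluster. Depth is unknown and could not be weighed.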
